A study of Mus musculus with 21 samples.

Results

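The epididymal fat of germ-free mice was compared late in the night with the same fat around dusk, across genes. Late night means zeitgeber times (ZT, hours after lights on) 18 and 22, and dusk means ZT10 and ZT14. The members are the 6 germ-free libraries of these times, out of 9 germ-free libraries and 21 libraries in all, and were taken by the microbial status and time in their labels. Late night holds 3 libraries, 1 at ZT18 (replicate 2) and 2 at ZT22 (replicates 1 and 2). Dusk holds 3 libraries, 2 at ZT10 (replicates 1 and 2) and 1 at ZT14 (replicate 2). All mice were C57BL/6j males of 15 to 16 weeks that ate ad libitum. The germ-free ones were kept without microbes and the conventional ones, used here for the spread and for 1 comparison, were raised with a gut microbiota and gave 4 late night and 4 dusk libraries. Total RNA was sequenced and read counts per gene were deposited. Nothing in the labels tells whether the libraries are of different mice, so a p-value here compares with the spread among libraries, which may be technical. That spread also holds any change between the 2 times of a phase, as these share a group in the fit. Clock phase, feeding and lighting can all differ between the phases, and between the 2 times of dusk, and cannot be told apart in this design.

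Cells keep daily time with a loop of transcription factors. ARNTL (BMAL1), paired with CLOCK or NPAS2, switches on the Period, Cryptochrome and Rev-erb genes through E-box sequences, and the Period and Cryptochrome proteins repress that pair while the Rev-erb receptors repress Arntl itself. In white fat the loop runs beside the feeding cycle: fed mice take up glucose and build fatty acids, sterols and triglyceride, while fasting raises lipolysis, the release of stored fatty acids.

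The 6 libraries held 28900903 to 48348181 counts each. Levels below are read counts scaled to a common library size (CPM) with TMM normalization factors; they are not divided by gene length, so levels are set side by side only within a gene. Adipocyte markers were abundant in every library: Adipoq (adiponectin) stood between 2289 and 3354 CPM, and 18 identity markers summed to 41161 CPM at ZT18 and 27635 and 41765 CPM at ZT22, against 44540 and 38440 CPM at ZT10 and 42359 CPM at ZT14. Transcripts of neighbouring tissue stood apart in both ZT22 libraries. Ciliated duct markers (18 genes) summed to 732 CPM in ZT22 replicate 1 and 11.6 to 35.7 CPM in the other 5 libraries. Epididymis and testis markers (14 of 18 genes passed the filter) summed to 3.80 CPM at ZT18 and 248 and 404 CPM at ZT22, against 25.4 and 0.597 CPM at ZT10 and 3.50 CPM at ZT14. Myh11, a smooth muscle myosin, reached 459 CPM in ZT22 replicate 2 and 89.6 to 97.8 CPM in the other 5. Liver markers (18 genes) summed to 4369 CPM at ZT18 and 2777 and 3008 CPM at ZT22, against 5528 and 5056 CPM at ZT10 and 7501 CPM at ZT14, of which Cyp2e1, which fat also expresses, made up most. Alb (albumin), a defining liver marker, was highest at ZT14, with 329 CPM, and next highest in ZT22 replicate 1, with 160 CPM. In bulk tissue, fewer cells of a type and less RNA per cell cannot be told apart.

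Of 20101 genes tested, 177 were higher in late night (0.881%) and 356 were lower (1.77%) at an adjusted p under 0.05 in edgeR's quasi-likelihood test. The change was over 2-fold for 67 of the higher and 73 of the lower genes. At an unadjusted p under 0.05 stood 4230 of the 20101 genes, higher and lower together, and DESeq2 called 804 higher and 912 lower. Counts of list members at these settings are to be read beside those totals. Clock genes, sterol synthesis genes and lipogenic genes were among the higher ones, while Rev-erb and Period genes, Pck1 and lipolysis genes were among the lower ones. The median log2 fold change of all genes was 0.04. The late night libraries lay wholly above the dusk libraries in 169 of the 177 higher genes, where 8.41% of all genes did so, and wholly below them in all 356 lower genes, where 10.3% of all genes did so. The 177 and 356 genes were chosen by a test on these same libraries, so their separation is largely given by that choice. Another 1068 genes had log2 fold changes above 2 without passing the test, and 1005 of these had their highest value in ZT22 replicate 1, the library with the most ciliated duct RNA. Only 25 genes that did not pass lay below a log2 fold change of -2.

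**Figure D1:**
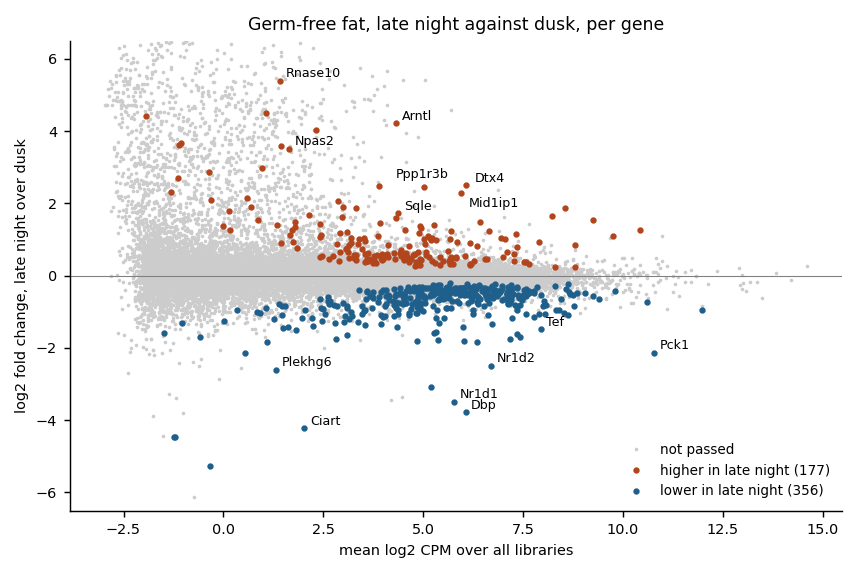
Each point is a gene, with its mean log2 CPM over all 21 libraries on the x axis and its log2 fold change of germ-free late night over dusk on the y axis; 177 genes passed the test as higher and 356 as lower. The grey points at high fold changes did not pass (1068 above a log2 fold change of 2), and 48 genes lie beyond the axis limits of 6.5 in either direction.

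The calls leaned on particular libraries. Without ZT10 replicate 2, 26 genes were higher and 38 lower; without ZT22 replicate 2, 33 were higher and 32 lower; and without ZT18 replicate 2, 312 were higher and 531 lower. Without ZT22 replicate 1, 234 were higher and 217 lower. Across the 6 fits that each left out 1 germ-free library, 50 of the 533 genes passed in all, 25 in each direction. Exon length moved with these libraries too. Each gene's deviation from its mean correlated with exon length across genes at rho -0.155 at ZT18 and -0.0700 and -0.179 at ZT22, against -0.165 and 0.113 at ZT10 and -0.0361 at ZT14, so ZT10 replicate 2 stood alone on the positive side. The median exon length was 3304 bases in the higher genes and 5107.5 bases in the lower genes, against 3142 bases in all genes tested. With an offset for exon length in the fit, 116 genes were higher and 323 lower.

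**Figure D2:**
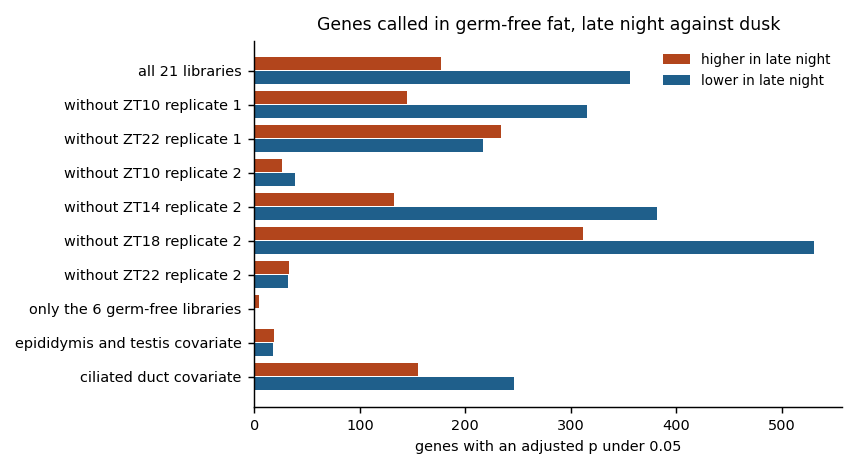
Bars count the genes that passed (adjusted p under 0.05) as higher or lower in germ-free late night, for the fit of all 21 libraries, for fits without 1 germ-free library each, for the 6 germ-free libraries alone, and with summed markers of the epididymis and testis or of ciliated ducts as a covariate. The counts were lowest with the 6 libraries alone (4 higher, 1 lower), next lowest with the epididymis and testis covariate (19 higher, 18 lower) and highest without ZT18 replicate 2.

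Of the 17 core clock genes listed, 16 were tested, of which 3 rose and 5 fell and 8 did not pass. The 3 that rose were the activators. Arntl had 42.6 CPM at ZT18 and 42.8 and 57.6 CPM at ZT22, against 2.06 and 1.96 CPM at ZT10 and 3.75 CPM at ZT14, where values at ZT10 and ZT22 are those of replicates 1 and 2 in that order. All 3 late night libraries lay far above the dusk libraries, with a log2 fold change of 4.22 ± 0.67, adjusted p = 0.00509, where ± is the standard error (SE) from the fit and each phase has n = 3. Npas2, which can replace CLOCK as the partner of ARNTL, had 2.36 CPM at ZT18 and 9.35 and 9.51 CPM at ZT22, against 0.481 and 0.767 CPM at ZT10 and 0.613 CPM at ZT14. Its ZT18 value lay between dusk and ZT22, and the groups did not overlap (log2 fold change 3.51 ± 0.53, adjusted p = 0.00365). Clock itself had 192 CPM at ZT18 and 195 and 201 CPM at ZT22, against 108 and 106 CPM at ZT10 and 123 CPM at ZT14, a smaller step with no overlap (0.80 ± 0.13, adjusted p = 0.00509). These 3 genes passed in each of the 6 fits without 1 library. Rora, an activating receptor at the ROR element, fell, with 113 CPM at ZT18 and 107 and 112 CPM at ZT22 against 175 and 171 CPM at ZT10 and 172 CPM at ZT14 (-0.64 ± 0.12, adjusted p = 0.0128), and lost its call without ZT10 replicate 2 or ZT22 replicate 2.

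The Rev-erb receptors ran the other way. Nr1d1 had 4.57 CPM at ZT18 and 7.98 and 10.004 CPM at ZT22, against 89.5 and 142 CPM at ZT10 and 22.3 CPM at ZT14. The ZT14 value lay closest to late night, and ZT10 alone was high (log2 fold change -3.49 ± 0.77, adjusted p = 0.0231). The call was lost without any 1 of ZT18 replicate 2, ZT10 replicate 2 and either ZT22 library. Nr1d2 had 34.7 CPM at ZT18 and 42.4 and 22.5 CPM at ZT22, against 211 and 206 CPM at ZT10 and 146 CPM at ZT14, with all dusk libraries high (-2.50 ± 0.41, adjusted p = 0.00532). Per1, a Period repressor that also responds to glucocorticoids, had 19.1 CPM at ZT18 and 20.3 and 19.3 CPM at ZT22, against 53.0 and 85.8 CPM at ZT10 and 61.4 CPM at ZT14. The late night libraries were nearly level and all lay below dusk (-1.77 ± 0.35, adjusted p = 0.0146). Per3 had 108 CPM at ZT18 and 58.7 and 49.4 CPM at ZT22, against 246 and 254 CPM at ZT10 and 233 CPM at ZT14, with ZT18 between dusk and ZT22 (-1.77 ± 0.39, adjusted p = 0.0247). Per2 did not pass: it had 50.2 CPM at ZT18 and 27.6 and 13.3 CPM at ZT22, against 49.7 and 65.1 CPM at ZT10 and 95.7 CPM at ZT14, and ZT18 reached the lowest dusk value (-1.21 ± 0.64, adjusted p = 0.293). Cry1 did not pass either, with 40.6 CPM at ZT18 and 30.2 and 45.4 CPM at ZT22 against 16.8 and 16.0 CPM at ZT10 and 23.1 CPM at ZT14, although no late night library fell to the dusk range (1.06 ± 0.32, adjusted p = 0.0848). Cry2 and Fbxl21 overlapped between the phases, with log2 fold changes of -0.11 and -0.20. The kinase genes Csnk1d (-0.16 ± 0.06, adjusted p = 0.129) and Csnk1e (-0.27 ± 0.09, adjusted p = 0.0948) did not pass. Against these 3 higher and 5 lower clock genes stand the shares of 0.881% and 1.77% over all genes. The 5 calls among the falling genes became 1 without ZT10 replicate 2, and 1 without ZT22 replicate 2.

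Among 13 clock output genes, 4 fell and none rose in edgeR's test, against 1.77% lower and 0.881% higher over all genes (2 were higher at an unadjusted p under 0.05, and none in DESeq2), with a median log2 fold change of -0.57. Ciart (listed as Gm129), a repressor of the ARNTL complex, had 0.796 CPM at ZT18 and 0.655 and 0.602 CPM at ZT22, against 16.0 and 16.3 CPM at ZT10 and 6.31 CPM at ZT14. It was below 1 CPM in every late night library, and ZT14 lay between ZT10 and late night (-4.23 ± 0.71, adjusted p = 0.00627). Dbp, one of the PAR bZIP factors that bind the D-box, had 15.0 CPM at ZT18 and 12.0 and 7.69 CPM at ZT22, against 196 and 197 CPM at ZT10 and 82.2 CPM at ZT14 (-3.78 ± 0.70, adjusted p = 0.0106), with the same order. Its call was lost without ZT10 replicate 2 or ZT22 replicate 2. Tef, another PAR bZIP factor, had 219 CPM at ZT18 and 126 and 91.7 CPM at ZT22, against 413 and 418 CPM at ZT10 and 388 CPM at ZT14, so its dusk libraries were level and its ZT18 library intermediate (-1.48 ± 0.31, adjusted p = 0.0196). Por, the electron donor of cytochrome P450 enzymes, had 341 CPM at ZT18 and 201 and 268 CPM at ZT22, against 551 and 609 CPM at ZT10 and 567 CPM at ZT14 (-1.09 ± 0.17, adjusted p = 0.00484) and passed in all 6 fits without 1 library. The remaining PAR bZIP gene, Hlf, did not pass (-1.22 ± 0.34, adjusted p = 0.0620), nor did Nfil3, a repressor at the D-box, whose 37.2 CPM at ZT18 and 24.9 and 24.0 CPM at ZT22 lay above the 1.82 and 3.89 CPM at ZT10 and 17.0 CPM at ZT14 of dusk but whose dusk libraries were spread widely (1.94 ± 0.77, adjusted p = 0.170). Bhlhe40, Bhlhe41, Wee1, Usp2, Klf10, Tspan4 and Pdk4 did not pass, with log2 fold changes between -1.20 (Bhlhe41) and 0.31 (Klf10).

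**Figure D3:**
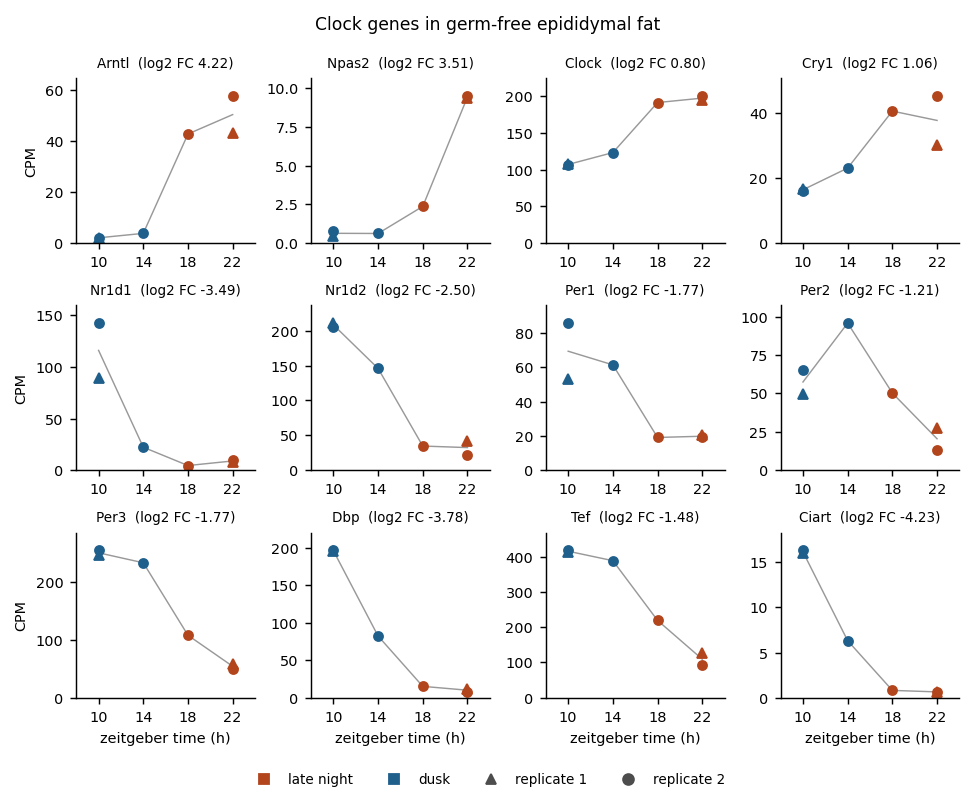
Each panel shows 1 clock gene in the 6 germ-free libraries, with zeitgeber time in hours on the x axis and CPM on the y axis; points are libraries and the line joins the means of each time. Arntl and Clock are high at ZT18 and ZT22, and Npas2 is high at ZT22 with its ZT18 value between dusk and ZT22. Nr1d1, Nr1d2, Per1, Per3, Dbp, Tef and Ciart are high at ZT10, and Per2 peaks at ZT14 with 95.7 CPM.

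Promoter windows of 300 bases, 250 before and 50 after each gene start, were searched on both strands for the E-box CACGTG, the D-box TTANGTAA, the ROR element bound by Rev-erb and ROR receptors (the letters in capitals in the Arntl window, with any base at the third place), and the sterol regulatory element TCACNCCAC. No 2 of these motifs overlapped in the windows shown. The sequences are from RefSeq on GRCm38.p6. The 3 clock windows below are shown because each carries the motif of a different arm of the loop in a gene that moved: Ciart (chr3:95882179-95882478, minus strand) with 3 E-boxes, Per3 (chr4:151044616-151044915, minus strand) with 2 D-boxes and Arntl (chr7:113207261-113207560, plus strand) with a ROR element just past its start. Capitals mark the motifs.
Ciart: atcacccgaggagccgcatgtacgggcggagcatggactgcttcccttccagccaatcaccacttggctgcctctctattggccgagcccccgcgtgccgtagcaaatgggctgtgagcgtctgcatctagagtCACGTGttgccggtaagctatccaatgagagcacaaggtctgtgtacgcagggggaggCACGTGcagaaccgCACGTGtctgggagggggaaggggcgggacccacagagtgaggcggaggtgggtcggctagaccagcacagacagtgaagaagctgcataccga
Per3: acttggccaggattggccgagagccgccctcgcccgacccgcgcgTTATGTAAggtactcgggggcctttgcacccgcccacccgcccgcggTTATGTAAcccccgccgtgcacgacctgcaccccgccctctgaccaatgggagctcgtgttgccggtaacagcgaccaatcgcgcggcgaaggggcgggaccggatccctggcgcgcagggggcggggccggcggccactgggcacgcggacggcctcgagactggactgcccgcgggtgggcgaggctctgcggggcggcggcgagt
Arntl: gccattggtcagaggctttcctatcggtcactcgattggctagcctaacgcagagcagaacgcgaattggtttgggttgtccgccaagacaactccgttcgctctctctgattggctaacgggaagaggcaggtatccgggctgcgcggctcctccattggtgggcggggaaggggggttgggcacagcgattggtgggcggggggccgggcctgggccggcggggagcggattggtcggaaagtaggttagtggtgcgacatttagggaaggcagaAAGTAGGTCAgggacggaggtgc

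The E-box letters were present in 7.15% of all 32851 promoter windows, the D-box letters in 2.32% and the ROR element in 0.219%. For the clock lists, 33 windows of 23 genes were matched, of which 21.2% held the E-box (Bhlhe41, Ciart, Cry1, Per1, Tef and Tspan4), 6.06% the D-box (Per3 and Rorb) and 3.03% the ROR element (Arntl). Of the 189 windows matched to genes higher in late night, 14.3% held the E-box, and of the 385 windows of lower genes, 12.2% did. The E-box thus occurred beside genes of both directions: Per1, Tef and Ciart fell, while Insig1, Dhcr7, Sc5d and Hsd17b7 of the sterol pathway rose. A match of letters is a description and not a bound site.

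Sterol synthesis genes were higher in late night. Of 26 cholesterol synthesis and uptake genes, all tested, 9 rose and none fell in edgeR's test, against 0.881% higher and 1.77% lower over all genes (1 was lower at an unadjusted p under 0.05, and none in DESeq2), 24 had log2 fold changes above 0, and their median was 0.85, against 0.04 for all genes. Along the pathway from acetyl-CoA, Hmgcs1, which condenses the first intermediate, had 345 CPM at ZT18 and 243 and 454 CPM at ZT22, against 194 and 172 CPM at ZT10 and 183 CPM at ZT14. Every late night library lay above every dusk library (0.93 ± 0.19, adjusted p = 0.0171). Pmvk (1.22 ± 0.27, adjusted p = 0.0239) and Mvd (1.87 ± 0.42, adjusted p = 0.0258), enzymes of the mevalonate arm, rose too. Mvd had 17.1 CPM at ZT18 and 10.01 and 35.1 CPM at ZT22, against 7.16 and 3.98 CPM at ZT10 and 5.88 CPM at ZT14, with ZT22 replicate 2 the highest by far. Sqle, squalene epoxidase, which starts the sterol-specific arm, had 29.2 CPM at ZT18 and 33.5 and 62.4 CPM at ZT22, against 16.8 and 10.1 CPM at ZT10 and 10.9 CPM at ZT14 (1.73 ± 0.28, adjusted p = 0.00532). Hsd17b7, a reductase of the same arm, had 24.0 CPM at ZT18 and 18.9 and 33.5 CPM at ZT22, against 11.6 and 8.18 CPM at ZT10 and 8.26 CPM at ZT14 (1.45 ± 0.24, adjusted p = 0.00532), and is the sterol gene that passed in all 6 fits without 1 library. Lss, which closes the sterol ring system, Sc5d and Dhcr7, 2 late enzymes, rose with log2 fold changes of 1.02, 1.14 and 1.004 (adjusted p = 0.0441, 0.0264 and 0.0457). Insig1, which holds the SREBP precursor in the endoplasmic reticulum and is itself an SREBP target, had 729.9 CPM at ZT18 and 513 and 1196 CPM at ZT22, against 330.1 and 155 CPM at ZT10 and 291 CPM at ZT14 (1.65 ± 0.41, adjusted p = 0.0378).

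Srebf2, the SREBP gene of the sterol pathway, did not pass, with a log2 fold change of 0.40 (adjusted p = 0.265). Nor did Cyp51 (1.30 ± 0.34, adjusted p = 0.0509) and Mvk (0.52 ± 0.15, adjusted p = 0.0666). Insig2 (-0.34) and Scap (-0.0020) were the genes of the list below 0. ZT22 replicate 2 was the highest library for Hmgcs1, Mvd, Sqle, Hsd17b7 and Insig1, and without it 2 of the 26 genes passed as higher; without ZT10 replicate 2 it was 1, and without ZT14 replicate 2 it was 3. ZT22 replicate 2 also had the highest epididymis and testis marker sum, 404 CPM, and the highest Myh11. With that marker sum as a covariate, none of the 26 genes passed (for Sqle the log2 fold change was 1.37, adjusted p = 0.0545, and for Hsd17b7 it was 1.27, adjusted p = 0.0505). The windows of a regulator and an enzyme of the pathway are shown because that of Insig1 (chr5:28071162-28071461, plus strand) holds the E-box and that of Hmgcs1 (chr13:119690101-119690400, plus strand) is the only one of the 18 genes matched from this list with the sterol regulatory element. Capitals mark the motifs.
Insig1: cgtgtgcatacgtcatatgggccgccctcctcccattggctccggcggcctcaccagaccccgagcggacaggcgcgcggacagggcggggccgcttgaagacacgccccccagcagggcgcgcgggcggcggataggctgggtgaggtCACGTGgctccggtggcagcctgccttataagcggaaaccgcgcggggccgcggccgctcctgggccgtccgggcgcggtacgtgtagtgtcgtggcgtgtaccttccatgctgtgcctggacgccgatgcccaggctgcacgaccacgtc
Hmgcs1: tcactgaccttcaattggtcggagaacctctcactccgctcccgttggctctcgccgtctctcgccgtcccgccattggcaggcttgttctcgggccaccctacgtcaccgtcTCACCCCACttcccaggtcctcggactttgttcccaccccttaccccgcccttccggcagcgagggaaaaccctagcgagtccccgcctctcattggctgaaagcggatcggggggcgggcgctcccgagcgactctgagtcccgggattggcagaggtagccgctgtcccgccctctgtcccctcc

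In the cholesterol list, 25.0% of 24 windows held the E-box, against 7.15% of all windows, and 4.17% held the sterol regulatory element, against 1.24%.

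Fatty acid synthesis genes gave 4 higher and no lower among 24 tested in edgeR's test, where 0.881% of all genes were higher and 1.77% lower (none was lower at an unadjusted p under 0.05 or in DESeq2), with a median of 0.49 on the log2 scale, and all 24 lay above 0. The 4 were regulators, a droplet protein and a desaturase rather than the core synthases. Mid1ip1, which promotes the assembly of acetyl-CoA carboxylase into filaments, had 156 CPM at ZT18 and 115 and 174 CPM at ZT22, against 34.5 and 26.5 CPM at ZT10 and 29.8 CPM at ZT14. All late night libraries were at least 115 CPM and all dusk libraries at most 34.5 CPM (2.29 ± 0.37, adjusted p = 0.00509), and it passed in all 6 fits without 1 library. Its partner Thrsp (Spot 14) had 2829 CPM at ZT18 and 1750.2 and 4321 CPM at ZT22, against 1566 and 653 CPM at ZT10 and 1469 CPM at ZT14 (1.27 ± 0.32, adjusted p = 0.0415). The gap was narrow, with ZT22 replicate 1 just above ZT10 replicate 1. Pnpla3, a lipid droplet acylhydrolase induced by feeding, had 1106 CPM at ZT18 and 739 and 1302 CPM at ZT22, against 383 and 245 CPM at ZT10 and 446 CPM at ZT14 (1.55 ± 0.36, adjusted p = 0.0276). Scd2, a stearoyl-CoA desaturase, had 333 CPM at ZT18 and 497 and 1572 CPM at ZT22, against 343 and 213 CPM at ZT10 and 101 CPM at ZT14. Its groups overlapped, ZT22 replicate 2 was the highest by far, and the call (1.87 ± 0.47, adjusted p = 0.0431) was lost without that library, with a log2 fold change of 0.92. Thrsp, Pnpla3 and Scd2 each lost the call without any 1 of 3 libraries, ZT10 replicate 2 and ZT22 replicate 2 among them. With the epididymis and testis marker sum as a covariate they did not pass (adjusted p = 0.231, 0.171 and 0.366), and Mid1ip1 did (adjusted p = 0.0463). The core enzymes did not pass: the log2 fold change was 1.11 for Acly (adjusted p = 0.392), Acaca 0.27 (0.765), Fasn 0.22 (0.851), Scd1 0.27 (0.627) and Elovl6 1.42 (0.294). Elovl5 (0.76 ± 0.20, adjusted p = 0.0531) and Fads2 (1.59 ± 0.54, adjusted p = 0.118), which lengthen and desaturate polyunsaturated fatty acids, did not pass either.

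**Figure D4:**
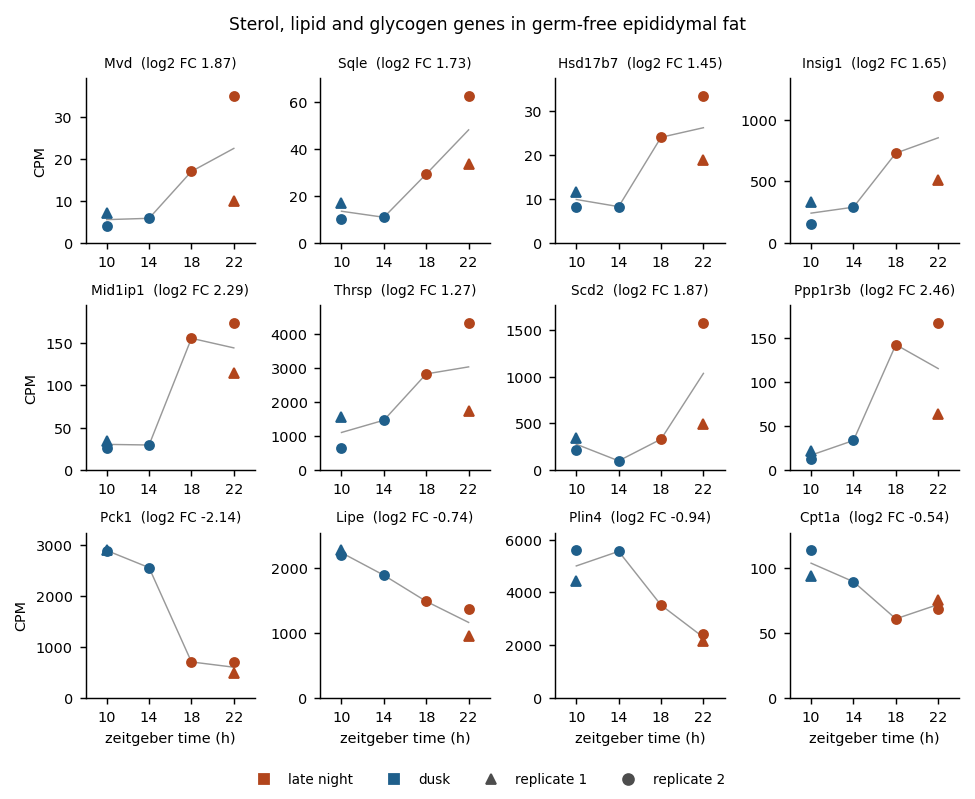
Each panel shows 1 gene of sterol, fatty acid, glycogen or lipid storage metabolism in the 6 germ-free libraries, with zeitgeber time in hours on the x axis and CPM on the y axis; points are libraries and the line joins the means of each time. The 8 genes of the upper rows passed as higher in late night, with the ZT22 libraries far apart for most of them, and Pck1, Lipe, Plin4 and Cpt1a passed as lower.

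Triglyceride assembly and lipid uptake genes moved in both directions, with 2 higher and 2 lower among 29 and a median of -0.01. Over all genes 0.881% were higher and 1.77% lower. Pck1, whose enzyme makes the glycerol backbone of triglyceride in fasted fat, had 700.0 CPM at ZT18 and 491 and 701 CPM at ZT22, against 2891 and 2888 CPM at ZT10 and 2552 CPM at ZT14. The 3 dusk libraries were level and the late night ones all lay far below them (-2.14 ± 0.49, adjusted p = 0.0279). Pck1 lost its call without any 1 of the ZT10 and ZT22 libraries, and kept it without the ZT14 or the ZT18 library. With the epididymis and testis marker sum as a covariate it did not pass (-1.93, adjusted p = 0.186). Angptl8 (listed as Gm6484), a feeding-induced secreted regulator of lipoprotein lipase, had 69.6 CPM at ZT18 and 50.6 and 34.0 CPM at ZT22, against 12.4 and 5.99 CPM at ZT10 and 9.34 CPM at ZT14. The groups did not overlap, but the call (2.47 ± 0.63, adjusted p = 0.0449) was lost without any 1 of the 6 libraries. Acsl3 (1.02 ± 0.27, adjusted p = 0.0490), an acyl-CoA synthetase, rose, and Vldlr (-0.42 ± 0.11, adjusted p = 0.0485), a lipoprotein receptor, fell. The glycerol channel Aqp7 (-0.57 ± 0.16, adjusted p = 0.0654) and Acsl1 (-0.92 ± 0.30, adjusted p = 0.105) did not pass. Lipoprotein lipase, Lpl, was at -0.26 on the log2 scale (adjusted p = 0.451), and the fatty acid importer Cd36 one of -0.22 (0.352).

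Of 22 lipolysis and lipid droplet genes, 3 fell and none rose in edgeR's test, against the same 1.77% and 0.881% over all genes (2 were higher at an unadjusted p under 0.05, and none in DESeq2), with a median of -0.48. Lipe, hormone-sensitive lipase, had 1480.2 CPM at ZT18 and 946 and 1366 CPM at ZT22, against 2265 and 2194 CPM at ZT10 and 1882 CPM at ZT14. The groups did not overlap, and ZT22 replicate 1 was the lowest (-0.74 ± 0.19, adjusted p = 0.0497). Plin4, a droplet coat protein, had 3512 CPM at ZT18 and 2163 and 2414 CPM at ZT22, against 4409 and 5589.8 CPM at ZT10 and 5553 CPM at ZT14 (-0.94 ± 0.18, adjusted p = 0.0111). Pde3b, the phosphodiesterase through which insulin restrains lipolysis (-0.61 ± 0.18, adjusted p = 0.0700), and Cidec, a droplet fusion protein (-0.58 ± 0.18, adjusted p = 0.0905), did not pass. Pnpla2, adipose triglyceride lipase, was at -0.34 on the log2 scale (adjusted p = 0.355). The adipocyte identity list had a median of -0.20 over 18 genes, with 5 of them above 0 and 1 call, lower (Lipe, on both lists), and its sum was lowest in ZT22 replicate 1. The part of this in the lipolysis result was not tested; without that library the log2 fold change was -0.58 for Lipe and -0.82 for Plin4, and Plin4 kept its call. Lipe lost its call without any 1 of 5 of the 6 libraries (all but ZT18 replicate 2), with log2 fold changes of -0.87 to -0.58. Without ZT10 replicate 2, or without ZT22 replicate 2, none of the 22 genes passed.

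In the glucocorticoid and fasting list, 3 of 22 fell and none rose in edgeR's test, where 1.77% of all genes were lower (2 were higher at an unadjusted p under 0.05, and 1 in DESeq2), with a median of -0.23: the clock gene Per1, described above, Ppara and Cpt1a. Ppara, the fatty acid receptor that drives oxidation genes, had 10.6 CPM at ZT18 and 13.8 and 9.91 CPM at ZT22, against 23.3 and 21.6 CPM at ZT10 and 18.6 CPM at ZT14 (-0.89 ± 0.20, adjusted p = 0.0244). Cpt1a, which admits fatty acids to mitochondria, had 60.7 CPM at ZT18 and 75.4 and 68.1 CPM at ZT22, against 93.8 and 113 CPM at ZT10 and 89.3 CPM at ZT14 (-0.54 ± 0.12, adjusted p = 0.0212). In neither did the groups overlap. Cpt1a was the single call among 24 fatty acid oxidation genes, whose median was -0.03. Klf9 (-0.45 ± 0.18, adjusted p = 0.160) and Cdkn1a (2.20 ± 0.62, adjusted p = 0.0661) did not pass; Cdkn1a, an inhibitor of the cell cycle, had 15.1 CPM at ZT18 and 23.3 and 35.7 CPM at ZT22, against 2.99 and 2.84 CPM at ZT10 and 10.4 CPM at ZT14.

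In the list of glucose uptake, glycolysis and glycogen, 2 of 34 rose and none fell in edgeR's test (4 were lower at an unadjusted p under 0.05, and 1 in DESeq2). Over all genes 0.881% were higher and 1.77% lower, shares that apply to each list of this paragraph. Ppp1r3b, which brings protein phosphatase 1 to glycogen and so activates its synthesis, had 142 CPM at ZT18 and 63.5 and 166 CPM at ZT22, against 21.3 and 12.8 CPM at ZT10 and 33.6 CPM at ZT14. ZT22 replicate 1 was the lowest of late night and still above every dusk library (2.46 ± 0.58, adjusted p = 0.0309). Ppp1r3b lost its call without any 1 of the ZT10 libraries and ZT22 replicate 2. Pfkp, a phosphofructokinase, rose less (0.83 ± 0.19, adjusted p = 0.0244). In insulin signalling, 2 of 28 fell, against 1.77% of all genes. At an unadjusted p under 0.05, 9 were lower, where 4230 of all 20101 genes were higher or lower. The 2 that fell were Pdpk1 (-0.34 ± 0.07, adjusted p = 0.0226), a kinase upstream of AKT, and Eif4ebp1 (-0.51 ± 0.12, adjusted p = 0.0330), the mTORC1-controlled inhibitor of translation. Irs2, which had 39.5 CPM at ZT18 and 28.1 and 26.5 CPM at ZT22, against 61.9 and 105 CPM at ZT10 and 54.5 CPM at ZT14, did not pass (-1.23 ± 0.38, adjusted p = 0.0875). Dio2, which activates thyroid hormone, was the single call among 14 thermogenic genes tested: it had 5.28 CPM at ZT18 and 1.85 and 6.91 CPM at ZT22, against 1.66 and 0.824 CPM at ZT10 and 1.26 CPM at ZT14 (1.91 ± 0.44, adjusted p = 0.0272).

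Beyond these lists, several genes of other roles were among the highest and lowest fold changes. Dtx4, of the Deltex family of ubiquitin ligases, had 106 CPM at ZT18 and 118 and 173 CPM at ZT22, against 21.3 and 27.5 CPM at ZT10 and 21.1 CPM at ZT14, with 106 CPM as its lowest late night value (2.50 ± 0.35, adjusted p = 0.00300). Glrx, glutaredoxin, had 13.9 CPM at ZT18 and 12.8 and 15.9 CPM at ZT22, against 4.41 and 3.92 CPM at ZT10 and 5.52 CPM at ZT14 (1.62 ± 0.21, adjusted p = 0.00123). Both passed in all 6 fits without 1 library. Lonrf3 (1.89 ± 0.43, adjusted p = 0.0259) and Tmem51 (1.69 ± 0.42, adjusted p = 0.0389) rose as well, but each passed in only 2 of those 6 fits, and the log2 fold change of Tmem51 was 0.86 without ZT22 replicate 2.

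Slc5a6, the transporter of biotin and pantothenate, had 58.4 CPM at ZT18 and 32.4 and 42.5 CPM at ZT22, against 192 and 160.0 CPM at ZT10 and 124 CPM at ZT14 (-1.84 ± 0.36, adjusted p = 0.0146). Mycl1, the L-Myc gene, had 11.6 CPM at ZT18 and 14.8 and 9.65 CPM at ZT22, against 23.5 and 32.0 CPM at ZT10 and 70.1 CPM at ZT14, with ZT14 the highest (-1.80 ± 0.35, adjusted p = 0.0131). Fbxo21, an F-box protein of a ubiquitin ligase, had 111 CPM at ZT18 and 85.3 and 70.9 CPM at ZT22, against 244 and 304 CPM at ZT10 and 322 CPM at ZT14 (-1.71 ± 0.25, adjusted p = 0.00355). Fbxo21, the small GTPase gene Rasl11b (-1.64 ± 0.24, adjusted p = 0.00315) and the tensin gene Tenc1 (-1.62 ± 0.26, adjusted p = 0.00509) passed in all 6 fits without 1 library. Plekhg6 (-2.60 ± 0.55, adjusted p = 0.0196), Pcsk4 (-1.76 ± 0.46, adjusted p = 0.0490) and the adipokine Angptl2 (-1.14 ± 0.21, adjusted p = 0.0107), 1 of 2 lower genes among 16 adipokines (1.77% of all genes were lower), fell too. Slc5a6, Plekhg6, Pcsk4 and Angptl2 lost their calls without either of ZT10 replicate 2 and ZT22 replicate 2, and Mycl1 lost its call without ZT22 replicate 2.

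The other 3 genes named for a high fold change had their highest values in a ZT22 library, where the neighbouring-tissue markers were also high. With the epididymis and testis marker sum as a covariate, none of the 3 passed. The log2 fold changes were then 3.69 for Rnase10, itself 1 of those markers (adjusted p = 0.477), 2.15 for Actg2 (0.403) and 2.25 for Hephl1 (0.301). How much of their values came from neighbouring tissue was not tested. Rnase10, an epididymal secreted protein, had 0.292 CPM at ZT18 and 48.6 and 0.245 CPM at ZT22, against 0.374 and 0.256 CPM at ZT10 and 0.541 CPM at ZT14. The groups overlapped: its log2 fold change was 5.39 ± 1.36, adjusted p = 0.0435, and without ZT22 replicate 1, the only library above 1 CPM, it was -0.54. Actg2, the smooth muscle gamma actin, had 1.65 CPM at ZT18 and 15.5 and 41.6 CPM at ZT22, against 1.71 and 0.994 CPM at ZT10 and 0.866 CPM at ZT14, so that ZT18 lay within the dusk range (4.03 ± 0.96, adjusted p = 0.0327). Hephl1, a copper ferroxidase, had 1.96 CPM at ZT18 and 3.78 and 24.6 CPM at ZT22, against 1.07 and 0.682 CPM at ZT10 and 0.757 CPM at ZT14, with ZT22 replicate 2 the highest (3.59 ± 0.77, adjusted p = 0.0218). Its ZT18 value lay above every dusk library although the marker sums were low there, and without ZT22 replicate 2 its log2 fold change was 1.77 and did not pass. In the epididymis and testis list the median was 5.87 on the log2 scale, with all 14 genes above 0 and 1 call, Rnase10. The ciliated duct list had a median of 4.45 with all 18 above 0 and no call in edgeR's test. At an unadjusted p under 0.05 it held 12, where 4230 of all 20101 genes were higher or lower. DESeq2 called 4 of the list, against 804 higher over all genes. The liver list had a median of -0.91, with 1 of 18 genes above 0 and no call (1, Cyp2e1, at an unadjusted p under 0.05 and in DESeq2).

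The other lists held few calls, to be set beside the 0.881% higher and 1.77% lower over all genes. Of 24 heat shock and cold-inducible genes, 2 rose, Hspa8 (1.10 ± 0.26, adjusted p = 0.0328), the constitutive chaperone HSC70, and Hspa4 (0.37 ± 0.08, adjusted p = 0.0236), its nucleotide exchange factor. Hspa8 had 1117 CPM at ZT18 and 866 and 1714 CPM at ZT22, against 470.4 and 532 CPM at ZT10 and 721 CPM at ZT14, with no overlap. None of 30 cytosolic ribosomal protein genes passed in edgeR's test. At an unadjusted p under 0.05, 17 were higher, where 4230 of all 20101 genes were higher or lower. DESeq2 called 12 higher, against 804 over all genes. All 30 lay above 0 (median 0.17) and 17 had late night libraries wholly above dusk, against 8.41% of all genes. Rpl13 had 208 CPM at ZT18 and 207 and 208 CPM at ZT22, against 179 and 164 CPM at ZT10 and 176 CPM at ZT14 (0.26 ± 0.07, adjusted p = 0.0509). In ribosome biogenesis, Utp20 rose (0.45 ± 0.10, adjusted p = 0.0226), the single call among 28 genes. Of these, 10 were higher at an unadjusted p under 0.05 and 7 in DESeq2, against the same 4230 and 804 over all genes. Of 22 autophagy and lysosome genes, 2 fell, Wipi1 (-0.44 ± 0.08, adjusted p = 0.0106) and Atg7 (-0.43 ± 0.10, adjusted p = 0.0253), which act in forming the autophagosome. Chac1 (-1.38 ± 0.30, adjusted p = 0.0212), a glutathione-degrading enzyme of the amino acid stress response, was the single call among 32 stress genes.

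Immediate early genes gave 1 higher, Egr2 (1.39 ± 0.36, adjusted p = 0.0441), and 1 lower, Zfp36 (-0.75 ± 0.19, adjusted p = 0.0449), of 24. The shares of 0.881% higher and 1.77% lower over all genes stand beside this and the next counts. Nfkbia, the NF-kappaB inhibitor, was the single call among 21 genes of microbial product sensing and acute phase, with 49.6 CPM at ZT18 and 40.6 and 43.0 CPM at ZT22 against 62.1 and 67.8 CPM at ZT10 and 73.9 CPM at ZT14 (-0.61 ± 0.12, adjusted p = 0.0136). Timp3 (-0.65 ± 0.16, adjusted p = 0.0406), a metalloproteinase inhibitor, was the single call among 35 matrix genes, and Ppm1k (-0.61 ± 0.16, adjusted p = 0.0480), which activates branched-chain amino acid breakdown, among 22 genes of that pathway. Of 32 oxidative phosphorylation genes, none passed in edgeR's test, none had an unadjusted p under 0.05 and none passed in DESeq2 (median 0.06). Of 15 adipocyte transcription factors, none passed (median -0.17). At an unadjusted p under 0.05, 4 were lower, where 4230 of all 20101 genes were higher or lower. In DESeq2, 1 was lower, against 912 over all genes. The proteasome, NAD metabolism, cell cycle, interferon, MHC class II and growth hormone lists also held no call in edgeR's test, with 0 to 6 genes each at an unadjusted p under 0.05 and 0 or 1 in DESeq2. The same held for the progenitor, endothelial, mesothelial, macrophage, lymphoid, granulocyte, erythroid, skeletal muscle and male accessory gland markers, with 0 to 4 genes each at an unadjusted p under 0.05 and 0 to 2 in DESeq2.

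**Figure D5:**
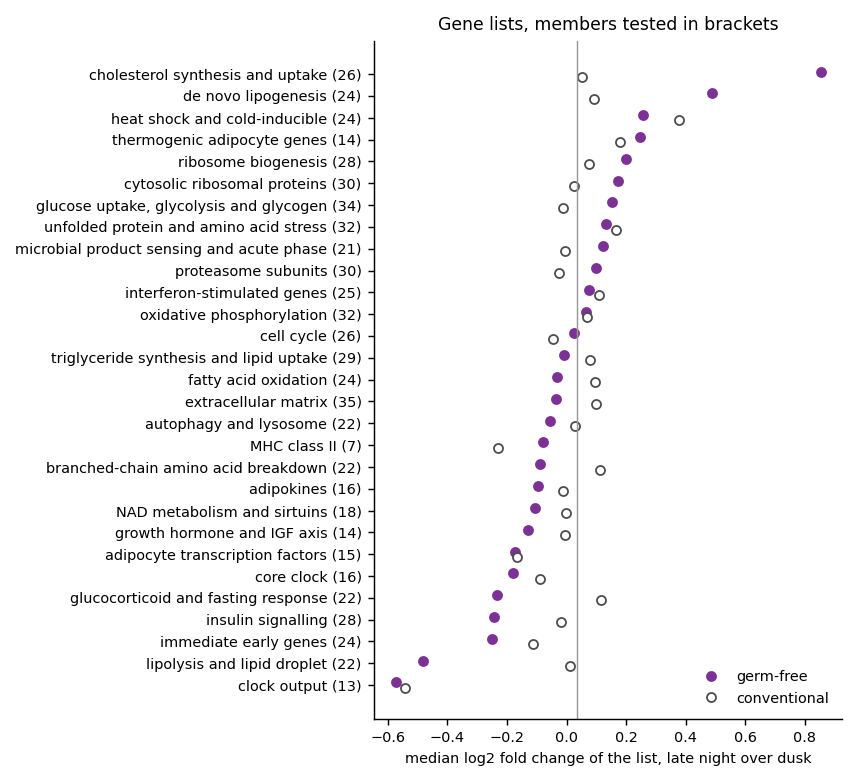
Points give the median log2 fold change of late night over dusk for each pathway list, with the number of genes tested in brackets. Marker lists of cell types and neighbouring tissue are not drawn. Filled points are germ-free and open points conventional, and the vertical line is the germ-free median of all genes, 0.04. The germ-free and conventional points lie farthest apart for cholesterol synthesis (0.85 and 0.05), less so for lipolysis (-0.48 and 0.01), and close together for clock output (-0.57 and -0.54). Of the lists not drawn, the medians were 5.87 and 1.10 for epididymis and testis, 4.45 and 0.83 for ciliated ducts, and -0.91 and -0.08 for liver. The difference between the arms was not tested for any list.

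The same phases were compared in conventional fat, and the difference between the arms was tested directly. The arms were sampled unevenly: germ-free dusk leans to ZT10 and germ-free late night to ZT22, while conventional fat has equal numbers of libraries at each time. The part of this in the fold changes of single genes was not tested. For no gene did the change in germ-free fat differ from that in conventional fat after adjustment in edgeR's test (0% called). Of 20101 genes, 1563 had an unadjusted p under 0.05, the smallest adjusted p was 0.422, and DESeq2 called 44. With ZT22 against ZT10 only, where both arms had the same times, edgeR also called 0 genes for the difference (1179 at an unadjusted p under 0.05). All 16 core clock genes tested had the same sign of log2 fold change in both arms, as did 12 of 13 clock output genes; Klf10 was at 0.31 in germ-free and -0.25 in conventional fat. The log2 fold change was 4.22 in germ-free and 2.69 in conventional fat for Arntl, -3.78 and -2.89 for Dbp, 0.80 and 0.67 for Clock, and -2.50 and -1.48 for Nr1d2. The values lay further apart for Npas2 (3.51 in germ-free and 1.81 in conventional fat), Bhlhe40 (-0.14 and -1.50) and Pdk4 (0.03 and 1.06), with adjusted p of 0.608, 0.636 and 0.684 for the difference. In the core clock list 1 gene, and in the clock output list 3 genes, had an unadjusted p under 0.05 for it. Of the genes that rose in germ-free fat, 145 of 177 also had a conventional value above 0, and of those that fell, 322 of 356 had one below 0, but these genes were chosen on the germ-free values. Their medians were 0.73 in germ-free and 0.16 in conventional fat for the higher genes, and -0.59 and -0.18 for the lower ones. Over all 20101 genes, the fold changes of the 2 arms correlated at Spearman's rho 0.372; this is across genes, which share their libraries.

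The 10 genes with the smallest p for this difference included Mid1ip1, with a log2 fold change of 2.29 in germ-free and 0.06 in conventional fat (difference 2.23 ± 0.47, adjusted p = 0.422). Map2k6, a kinase that activates p38, had 6.93 CPM at ZT18 and 8.79 and 6.88 CPM at ZT22, against 3.50 and 3.55 CPM at ZT10 and 3.75 CPM at ZT14 in germ-free fat, and its log2 fold change was 1.06 in germ-free and -0.09 in conventional fat (difference 1.15 ± 0.24, adjusted p = 0.422). Cpeb1, which controls polyadenylation in the cytoplasm, had 28.3 CPM at ZT18 and 27.4 and 25.3 CPM at ZT22, against 67.1 and 82.6 CPM at ZT10 and 49.3 CPM at ZT14 (-1.30 ± 0.14, adjusted p = 0.000590); its conventional value was -0.44 (difference -0.85 ± 0.18, adjusted p = 0.422). Mettl1, a transfer RNA methyltransferase, had 0.74 in germ-free and 0.02 in conventional fat, and Emg1, a ribosomal RNA methyltransferase, 0.53 and 0.14. The others were Nt5c2, Zyg11a, Gpr155, Ccdc125 and Cobll1, with differences between -1.70 (Zyg11a) and 1.15 (Ccdc125). Each of these 10 passed the test within germ-free fat, where 533 of 20101 genes did, and none passed that of the difference. The difference contains the germ-free change, so the ranking itself favours genes that pass within germ-free fat.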

How the data were processed

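Epididymal fat was sampled from germ-free and conventional male mice, and stranded total RNA libraries were sequenced after removal of ribosomal RNA, per the labels' protocols. Per the submitters' processing notes, reads were processed with STAR 2.4.0i on mm10. How reads were counted (program, strand, multi-mapping reads, annotation) is not given in the sources used here, so values of near-identical, overlapping and antisense genes are uncertain. The authors deposited raw read counts over exons for 38087 genes, and these counts were used as deposited. Positions came from GENCODE M21 (36308 genes matched by identifier). No mitochondrially encoded gene was in the table.

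The tests were run with edgeR 4.0.16 in R 4.3.3. Genes were kept with filterByExpr, library sizes were scaled by TMM, and all 21 libraries entered 1 quasi-likelihood fit with 6 groups (arm by morning, dusk and late night), which left 15 residual degrees of freedom. The contrast was germ-free late night minus dusk, and the difference between the arms was that contrast minus the conventional one. Benjamini-Hochberg adjustment covered all 20101 genes, with a threshold of 0.05. DESeq2 1.42.0 was an alternative, with no filter on low counts, other scaling, each library left out, other groupings and marker or exon length terms. The test was checked on simulated counts. Figures were drawn with matplotlib 3.10.9.

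Gene lists and the comparison itself were chosen with earlier results of these data known. Genes named are the 15 highest and 15 lowest fold changes among those that passed and averaged at least 1 on the log2 CPM scale, all clock genes, up to 4 passing and 2 other members of each list, and the 10 smallest p for the difference between the arms. Predicted models were skipped, and some genes that the rule or the lists hold are not reported here. Lss, Sc5d, Dhcr7, Srebf2, Insig2, Scap, Acly, Acaca, Fasn, Scd1, Elovl6, Lpl, Cd36, Pnpla2, Adipoq, Alb and Myh11 lie outside this rule and were chosen after their values were seen.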

Additional observations from a re-analysis of the deposited data

How the results depend on the processing

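Against 177 higher and 356 lower genes, DESeq2 gave 804 and 912 and called 44 genes for the difference between the arms, where edgeR called 0. No filter gave 113 and 218, ZT22 against ZT10 only gave 76 and 282, and the 6 germ-free libraries alone, with 4 residual degrees of freedom, gave 4 and 1 (2395 at an unadjusted p under 0.05). Leaving out 1 germ-free library at a time gave 26 to 312 higher, 32 to 531 lower and 0 or 1 for the difference; leaving out a conventional library gave 0 for the difference. Among terms added after seeing the data, the exon length offset gave 116 higher, the epididymis and testis covariate 19 and 18, and the liver covariate 0 and 2, but 140 and 354 when Cyp2e1 was left out of it. Of these marker sums, that of all liver markers was lower in every late night library than in every dusk library. That of epididymis and testis was high in both ZT22 libraries (248 and 404 CPM), while ZT18 (3.80 CPM) lay within the dusk range (0.597 to 25.4 CPM). RLE scaling (188 and 352), 12 arm-by-time groups (154 and 328) and the ciliated duct covariate (155 and 246) stayed within 1.5 times, as did leaving out both ZT14 replicate 2 and ZT22 replicate 1 (179 and 240). The replicate block gave 135 and 302, with 428 of its 437 genes shared, and 13 of the 73 named calls were lost. Same-numbered libraries correlated between -0.613 and 0.668 over 36 pairs of times: all 15 pairs among conventional ZT06 to ZT22 and germ-free ZT06 lay at 0.333 or above, a hint of a shared number effect there, and all 8 pairs with germ-free ZT22 at -0.222 or below. As the labels tie no number to a day or animal and not every pair was positive, the libraries were not treated as paired. Of 1387 values for the 73 named genes that passed, 870 kept direction and call, 515 lost the call and 2 turned: Rnase10, -0.54 without ZT22 replicate 1 (up to 5.97 when another germ-free library was left out) and -0.24 without that library and ZT14 replicate 2. The cause of these changes was not tested. Arntl, Dtx4, Mid1ip1 and Pck1 were the named genes that passed with the 6 germ-free libraries alone. The number of libraries, 3 a phase, limits the precision.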

Other observations

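The 4 times allow the order of change to be read within the called genes, as a description of 1 library at ZT14 and at ZT18 and means of 2 at ZT10 and ZT22. These genes were chosen for late night against dusk. The ranges were apart in all 356 lower and 169 of the 177 higher genes, so the step from ZT14 to ZT18 was given there by that choice. The shares over all genes were not counted, and a steady course over the night cannot be read from these counts. Of the 356 lower genes, 229 fell at every step over ZT10, ZT14, ZT18 and ZT22, 87 had ZT14 above the ZT10 mean, and 60 had ZT18 below the ZT22 mean. Of the 177 higher genes, 56 rose at every step, 68 had ZT14 below the ZT10 mean and 66 had ZT18 above the ZT22 mean.

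Some genes of the named lists that did not pass were high in 1 library. Lcn2, lipocalin 2, an antimicrobial iron-siderophore binder, had 4.73 CPM at ZT18 and 127 and 9.71 CPM at ZT22, against 4.62 and 6.16 CPM at ZT10 and 5.27 CPM at ZT14. The highest value lay in ZT22 replicate 1. The amino acid transporter gene Slc7a5 was at 22.0 CPM and Bcat1, which starts branched-chain amino acid breakdown in the cytosol, at 19.3 CPM in the same library, above the other 5 libraries in both cases (3.26 to 5.73 CPM and 1.16 to 2.67 CPM). Ckm, muscle creatine kinase, was at 4.88 CPM in ZT22 replicate 2 and at 0 to 0.0534 CPM in the other 5. Hspg2, the basement membrane proteoglycan perlecan, was at 744 CPM in ZT10 replicate 2, against 196 to 306 CPM in the other 5.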
